A study of Macaca mulatta with 30 samples.

Results

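The early response of the fetal lung to the clinical drug was read from 6 of the 30 RNA-seq samples of the study. They were the 3 lung libraries taken 4 h after the drug (animals 15-81, 15-85 and 15-97) and the 3 lung libraries of saline-treated controls (15-92, 15-101 and 16-113), chosen by their labels. All were wild type rhesus macaque fetuses labelled as gestational day 124 to 130. Their mothers had received a single intramuscular injection of saline or of Celestone at 0.25 mg/kg, the clinical drug, which mixes betamethasone phosphate with betamethasone acetate. The study gives antenatal steroids to ask how the drug and dose shape maturation of the fetal lung. Its other lung groups, of 3 animals each, were the clinical drug at 5 days and betamethasone acetate alone (Beta-Ac, 0.125 mg/kg) at 6 h and 5 days. They entered the same fit, and the 15 hippocampus libraries were not used. The lung labels give controls no interval, but hippocampus labels of the same 3 animals give 5 days after injection and delivery at 133, 131 and 135 days of gestation. The interval after injection therefore cannot be told apart from the drug. The delivery ages of these controls lie above the labelled range, and the study describes its groups as comparable in gestational age. The study lists the 4 h fetuses as males and its controls as of both sexes, and the sex of each control was not given in the sources used here. RNA came from whole lung tissue, so that fewer cells of a type and less RNA per cell cannot be told apart.

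Betamethasone is a synthetic glucocorticoid that crosses the placenta and binds the glucocorticoid receptor. The bound receptor moves to the nucleus, raises transcription from genes with its response elements, and represses many genes driven by inflammatory transcription factors. In the fetal lung the hormone is known for hastening the production of surfactant, the removal of lung liquid and the thinning of the tissue between airspaces and capillaries.

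Counted reads per library ranged from 14.1 to 45.0 M, and library 15-81 was the deepest of the 6. Levels are reads per 1 M counted reads after trimmed-mean scaling (CPM), and they are always listed in the order 15-81, 15-85 and 15-97 for treated animals and 15-92, 15-101 and 16-113 for controls. The first principal component of log2 CPM held 32.4% of the variance and separated the groups, with treated animals from -66.4 to -16.8 and controls from 30.0 to 40.1. Pairs of libraries from the same group differed by far more than counting error. Defining genes of lung were abundant in every library: SFTPC, the surfactant protein made by alveolar type 2 cells, was at 5697 to 9645 CPM in treated animals and at 2708 to 5096 CPM in controls, and NKX2-1, the transcription factor of lung epithelium, at 173 to 295 CPM over all 6. The alpha-globin gene HBA was at 2.38 CPM in control 15-92 and at 140 to 328 CPM in the 5 other libraries. Muscle MYH7 and thymic DNTT stood at or below 0.238 CPM, but muscle ACTC1 was at 3.74 to 8.35 CPM and thymic PTCRA at 0 to 0.509 CPM.

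At 4 h, 1306 of the 17644 tested genes differed between the groups (7.4% called, calls by edgeR's quasi-likelihood test, asking for 1.5-fold, an unadjusted p below 0.05 and a Storey q below 0.1). Of these, 611 were induced (3.46% of tested genes) and 695 were suppressed (3.94%). Identifiers without a symbol in the annotation made up 357 of the 1306 (27.3%) and could not be described by function. Most changes were modest. Fold changes lay between 1.5 and 2 for 607 genes (274 induced and 333 suppressed), between 2 and 4 for 524, between 4 and 8 for 109, and reached 8 or more for 66, of which 42 were induced. The median fold change was 2.10 for induced genes (interquartile range 1.68 to 3.04) and 2.04 for suppressed genes (1.70 to 2.61). Induced genes were the more abundant. Their median level was 28.4 CPM and 143 of them averaged at least 100 CPM, against 8.51 CPM and 49 genes for those suppressed. Over all tested genes the median log2 fold change was 0.02, with 9289 genes higher and 8355 lower.

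Genes named by size had to have a symbol and groups that did not overlap, so their separation was fixed by the choice. The 8 induced genes with the largest change at an average of at least 1 CPM were led by NNMT, which methylates nicotinamide. It was at 14.2, 11.4 and 13.2 CPM in treated animals and at 0.0595, 0.137 and 0.301 CPM in controls. Its log2 fold change was 6.18 ± 0.60 (SE; edgeR q = 4.78e-05), the groups were apart, and treated animals were close to each other. FKBP5, the co-chaperone that lowers the hormone affinity of the glucocorticoid receptor, stood at 219, 120 and 179 CPM against 5.83, 5.27 and 5.72 CPM (log2 fold change 4.94 ± 0.52, edgeR q = 7.38e-05). MFSD2A, which carries lysophosphatidylcholine into cells, stood at 94.6, 32.3 and 39.2 CPM against 1.55, 1.37 and 2.96 CPM (4.80 ± 0.55, edgeR q = 1.11e-04). ZBTB16, a zinc finger repressor, stood at 267, 125 and 216 CPM against 12.1, 12.3 and 4.12 CPM (4.43 ± 0.44, edgeR q = 4.84e-05). In these 3 genes animal 15-81 was the highest and 15-85 the lowest treated animal, and none overlapped the controls. RRAGD, a GTPase that signals amino acid supply to mTORC1, was even in both groups, at 88.0, 69.5 and 65.1 CPM against 5.89, 6.02 and 5.87 CPM (3.65 ± 0.31, edgeR q = 3.03e-05).

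The remaining 3 induced genes of this set were of low abundance. NALF2, an auxiliary factor of the sodium leak channel, was at 4.54, 1.35 and 1.06 CPM against 0.119, 0 and 0.10 CPM. ADRA2B, an alpha-2 adrenergic receptor, was at 4.98, 4.34 and 1.88 CPM against 0, 0.274 and 0.151 CPM. LY6H, a GPI-anchored protein of the LY6 family, was at 13.5, 0.449 and 1.88 CPM against 0.178, 0.205 and 0.301 CPM. LY6H thus owed its place to 1 animal: its log2 fold change was 4.52 (edgeR q = 0.0668) with all animals and 2.30 without 15-81, where the call was lost, as it was without any single control.

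**Figure D1:**
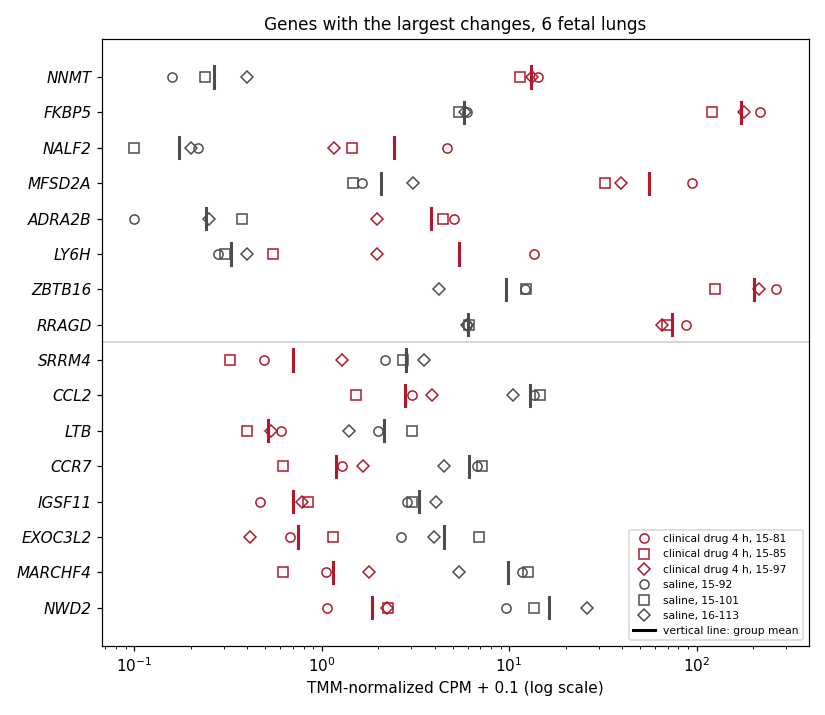
The plot shows the CPM plus 0.1, on a log axis, of the 8 induced and 8 suppressed genes with the largest changes in each of the 6 lungs, with symbols for animals and vertical lines for group means. Treated and control symbols do not overlap in any of the 16 genes, which the rule required, and the treated symbols spread widely for LY6H and more tightly for NNMT and RRAGD.

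Suppressed genes chosen the same way were less abundant and their changes smaller. NWD2, a NACHT domain protein, fell from 9.58, 13.4 and 25.9 CPM in controls to 0.973, 2.17 and 2.13 CPM in treated animals (log2 fold change -3.27 ± 0.56, edgeR q = 2.06e-03). MARCHF4, a membrane ubiquitin ligase, fell from 11.5, 12.5 and 5.32 CPM to 0.949, 0.523 and 1.69 CPM (-3.20, edgeR q = 4.85e-03). EXOC3L2, an exocyst-related gene, fell from 2.56, 6.78 and 3.87 CPM to 0.579, 1.05 and 0.313 CPM (-2.79). Each of these was lower in every treated animal than in any control, as the rule required, and no single treated animal was the lowest in all 3. IGSF11, an adhesion molecule of the immunoglobulin superfamily, fell by 2.48 on the log2 scale, from 2.74, 2.94 and 3.97 CPM to 0.371, 0.748 and 0.689 CPM. SRRM4, a splicing regulator known from neurons, fell by 2.19 (edgeR q = 0.0614) and lost its call without 15-81, 15-85, 15-101 or 16-113. The other 3 were immune genes, CCR7, LTB and CCL2, described with their groups. Of the 16 genes, 14 were called whichever of the 6 animals was left out, and the exceptions were LY6H and SRRM4. SLC6A20, an amino acid transporter, was left out of the ranking by its low average and is given only as a bound: 0 reads in the 3 controls against 139 reads in treated animals made it at least 32.8-fold higher, though its call was lost in all 6 fits without an animal.

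The 3 treated animals moved the same way at nearly every called gene, with the opposite sign at 1 induced gene in 15-81 and at 4 in 15-85. For each gene an animal was set against the mean of the controls, and a control against the mean of the other 2. At the 611 induced genes the median shift was 1.15 on the log2 scale in 15-81, 0.98 in 15-85 and 1.01 in 15-97, and it lay within 0.02 of zero in each control. At the 695 suppressed genes the medians were -0.96, -1.14 and -0.85. These shifts describe genes chosen for their difference in the same animals. All 3 treated animals were past 1.5-fold at 806 genes (61.7% of those called), exactly 2 of them at 418 (32.0%) and only 1 at 82 (6.28%). The groups did not overlap at 573 induced genes (93.8%) and 633 suppressed genes (91.1%), where 21.3% of all tested genes did not overlap (11.1% higher and 10.2% lower after the drug).

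**Figure D2:**
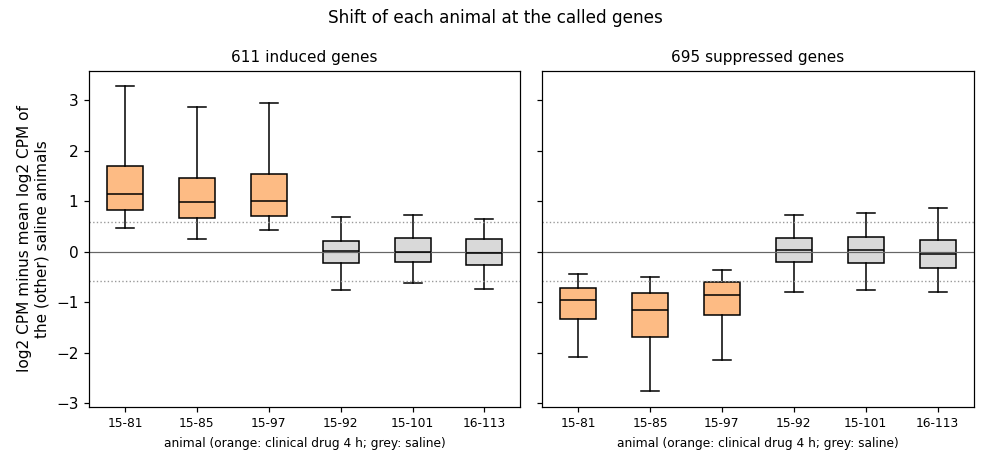
The box plots give, for each of the 6 animals, the log2 CPM of the called genes minus the mean of the controls (of the other controls for a control), with boxes for quartiles, whiskers from the 5th to the 95th percentile and dotted lines at 1.5-fold. At induced genes the box of 15-81 is the highest with a median of 1.15, and at suppressed genes the box of 15-85 is the lowest with a median of -1.14.

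The treated animals differed in how far they lay from the controls, and not in the same way in both directions. Animal 15-81 had the largest shift of the 3 at 298 of the 611 induced genes, and 15-85 had the smallest at 287. Among the 695 suppressed genes 15-85 had the largest shift at 356 and 15-97 the smallest at 326. No animal was sampled before the drug, so differences in response and in starting level cannot be told apart. Library depth differed as well: 15-81 had 45.0 M reads, and with its library thinned to the 17.0 M of 15-97, an alternative added after seeing the data, 1332 genes were called, of which 567 were induced and 765 suppressed, and 1223 of the 1306 (93.6%) were kept.

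Leaving out single animals left between 1005 genes (without control 15-92) and 1287 genes (without 15-81) called. Of the 1306 genes, 881 (67.5%) to 1031 (78.9%) were kept each time, and 619 (47.4%) were called in every one of the 6 fits, 322 induced and 297 suppressed. The share kept in every fit was 34.3% of genes changed by 1.5 to 2-fold and 60.6% of those changed by 8-fold or more. The split between directions also moved: without 15-81 there were 514 induced and 773 suppressed genes, and without 15-85 there were 564 and 531.

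**Figure D3:**
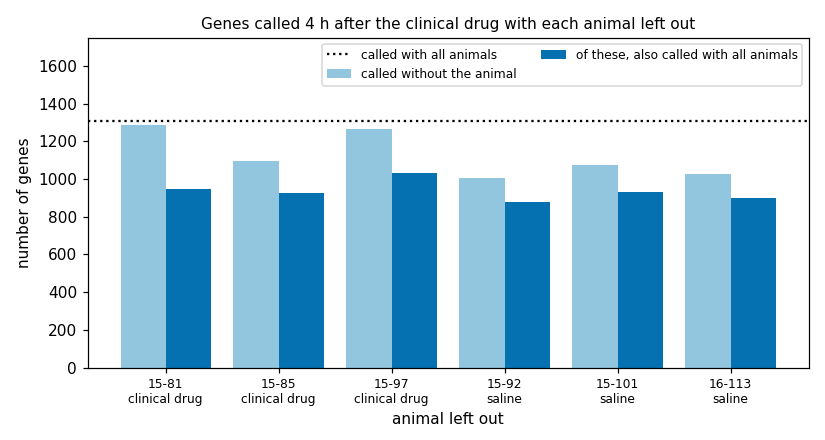
Pairs of bars give the number of genes called with each of the 6 animals left out and the number of these that were also called with all animals, beside a dotted line at the 1306 genes called with all animals. The number kept is lowest without control 15-92, at 881, and highest without treated 15-97, at 1031.

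The called genes were grouped with 52 lists of genes by function or cell type, chosen with earlier results of these data known. Each list is described by its counts of tested members and its median. These are to be read against 3.46% induced, 3.94% suppressed and a median of 0.02 over all tested genes. Listed genes without an identifier or with too few reads could not be tested. Tested were 24 of 35 listed glucocorticoid-induced genes, 33 of 44 T cell genes and 24 of 51 chemokine and receptor genes. Called members were mostly induced in the lists for glucocorticoid targets, fuel use, phospholipid synthesis and ion transport, and mostly suppressed in those for T cells, B cells, NF-kappaB, interferon response, endothelium and axon guidance. Except for glucocorticoid targets, most tested members of each of these lists were not called. Of 152 called genes that the naming rule chose, 91 were called whichever animal was left out. Lists for cholesterol synthesis, oxidative phosphorylation, antioxidant enzymes, airway epithelium and erythroid cells had 0 called members each.

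**Figure D4:**
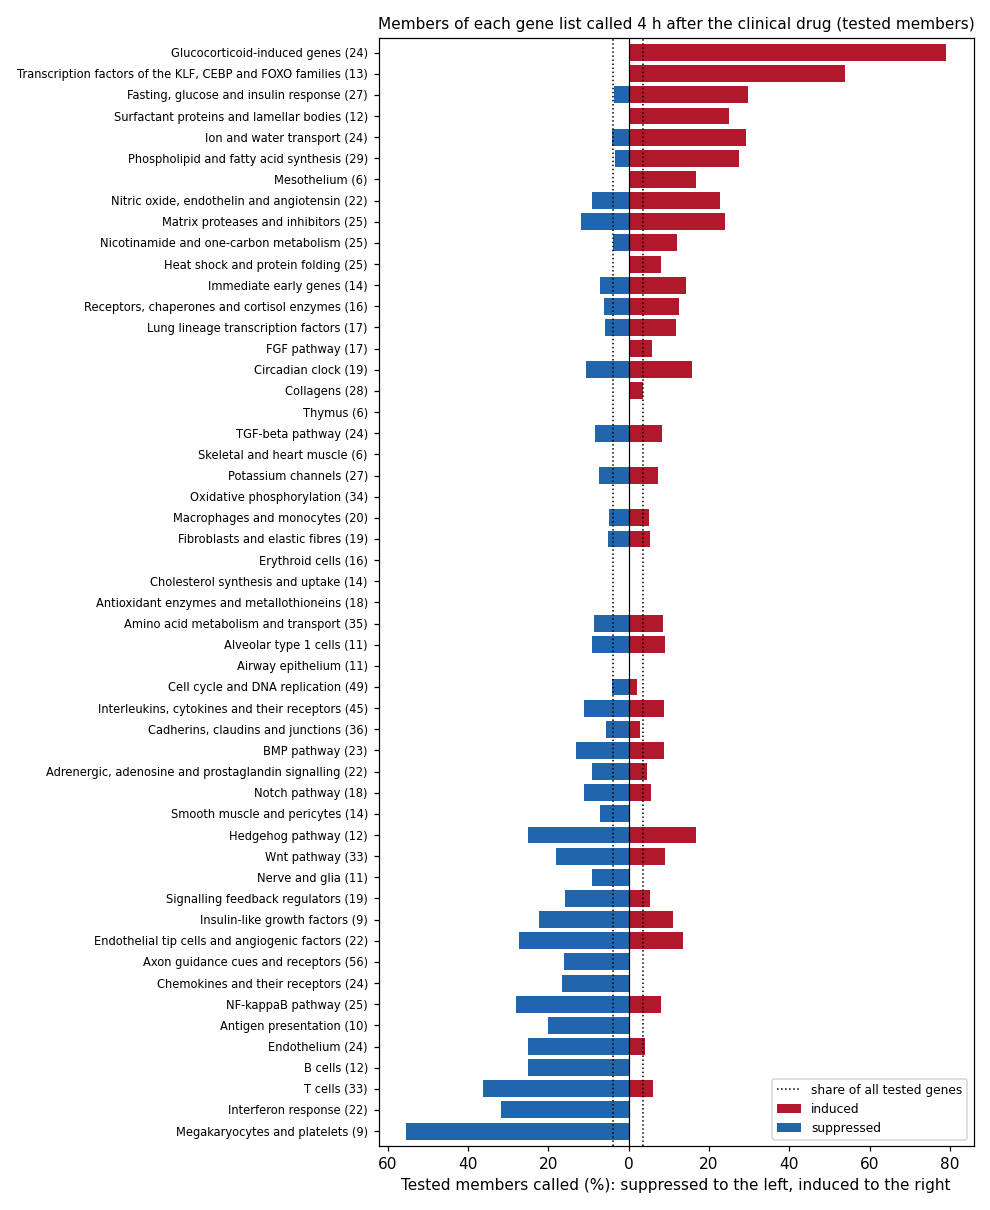
Horizontal bars give the percent of tested members that were induced (right) or suppressed (left) in each of the 52 lists, with the number tested in parentheses and dotted lines at the shares of all tested genes, 3.46% and 3.94%. The glucocorticoid-induced list stands at the top with 19 of 24 induced, and the short megakaryocyte list at the bottom with 5 of 9 suppressed.

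The list of known glucocorticoid-induced genes was chosen with earlier results of these data known, so its share of calls is no independent test. Of its 24 tested genes, 19 were induced, none was suppressed and the median log2 fold change was 1.53. Without single animals 15 to 19 of them were induced, fewest without 15-81, 15-92 or 16-113. Beside FKBP5 and ZBTB16, these included the transcription factor TFCP2L1 (27.7, 15.8 and 13.3 CPM against 2.68, 0.890 and 1.25 CPM, log2 fold change 3.56). HIF3A, a hypoxia-inducible factor subunit, was at 342, 278 and 325 CPM against 76.8, 83.9 and 58.5 CPM (2.11). NFKBIA, the inhibitor that holds NF-kappaB in the cytoplasm, was at 413, 360 and 413 CPM against 138, 121 and 113 CPM (1.67). In all of these the groups were well separated. CRISPLD2, a secreted matrix protein, rose by 1.83 and MAOA, which breaks down monoamines, by 1.63. SGK1, the kinase that stabilises sodium channels, was at 135, 114 and 194 CPM against 89.6, 66.6 and 101 CPM and was not called (0.78 ± 0.41, edgeR q = 0.228).

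Of the hormone receptors, NR3C2 fell and NR3C1 was not called. NR3C1, the glucocorticoid receptor, was at 82.8, 62.4 and 66.6 CPM against 74.2, 90.8 and 117 CPM, with overlapping groups, and its log2 fold change of -0.41 ± 0.15 (edgeR q = 0.0940) was below the fold threshold. NR3C2, the mineralocorticoid receptor, was suppressed from 8.86, 10.5 and 12.7 CPM to 7.78, 4.19 and 5.82 CPM (-0.84 ± 0.23, edgeR q = 0.0309), a call lost without 16-113 and with only the compared groups fitted. HSD11B2, which inactivates cortisol, was at 49.8, 97.1 and 70.7 CPM against 43.5, 43.6 and 42.9 CPM (0.74, edgeR q = 0.0861), and its call was lost in 5 of the 6 fits without an animal and with only the compared groups fitted. Its controls lay close together and the treated animals did not.

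Transcription factors of the KLF, CEBP and FOXO families, which regulate metabolism and differentiation, had 7 of 13 tested members induced and none suppressed (median 0.63). KLF15, a regulator of amino acid and glucose use, was at 122, 85.5 and 116 CPM against 21.9, 23.0 and 18.2 CPM (log2 fold change 2.36 ± 0.23, edgeR q = 4.84e-05). FOXO3, which drives fasting and stress programmes, was at 248, 94.4 and 125 CPM against 39.3, 40.4 and 48.8 CPM (1.86). CEBPD, a factor of acute and adipogenic responses, rose by 1.24 and lost its call without 15-97, 15-101 or 16-113. FOXO1, KLF6, KLF2 and FOXO4 rose by 1.23, 1.00, 0.77 and 0.63, the call of KLF6 being lost without 15-81, 15-92 or 16-113 and that of FOXO4 without 15-81.

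Among 19 tested genes of the circadian clock 3 were induced and 2 suppressed, and these 5 became 8 without 15-81 and 2 or 3 without any other animal. PER1, a period repressor that glucocorticoids induce directly, was at 836, 695 and 732 CPM against 161, 201 and 96.5 CPM (log2 fold change 2.30 ± 0.28, edgeR q = 1.83e-04). HLF, a clock output factor, rose by 1.31. NR1D1, the repressor of ARNTL, fell from 9.81, 10.8 and 7.63 CPM to 6.28, 2.47 and 2.94 CPM (-1.21), a call lost without 15-85, 15-97 or 15-101. ARNTL, the core activator, was at 28.6, 49.6 and 77.0 CPM against 30.2, 23.0 and 35.9 CPM with overlapping groups (0.79, edgeR q = 0.0960), and its call was lost in 5 of the 6 fits without an animal. DBP, an output factor, was at 23.3, 20.4 and 13.2 CPM against 29.6, 29.6 and 28.0 CPM (-0.61), with a call that was equally lost in 5. The hour of delivery was not given in the sources used here, and its part in these values was not tested.

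Genes of fasting, glucose and insulin response had 8 of 27 tested members induced and 1 suppressed. PDK4, the kinase that shuts pyruvate out of oxidation, was at 359, 238 and 278 CPM against 39.0, 14.6 and 29.5 CPM (log2 fold change 3.39 ± 0.42, edgeR q = 2.11e-04). GLUL, which makes glutamine, was at 975, 525 and 686 CPM against 245, 240 and 270 CPM (1.53). IRS2 and INSR, 2 proteins of insulin signalling, rose by 1.53 and 0.72, TXNIP, an inhibitor of glucose uptake, by 1.19, and HK2, a hexokinase, by 0.66. UCP2, a mitochondrial carrier, fell by 0.91. The 9 called members became 5 without 15-81 or 15-92, where the calls of IRS2, INSR, TXNIP and HK2 were among those lost, and HK2 was called in none of the fits without an animal. UCP2 lost its call without 16-113.

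Surfactant genes rose in part. Of 12 tested, 3 were induced and none suppressed (median 0.21), and all 3 calls held whichever animal was left out. SFTPC was at 9645, 5697 and 7775 CPM against 2708, 2730 and 5096 CPM (log2 fold change 1.13 ± 0.28, edgeR q = 0.0178). LAMP3, a membrane protein of lamellar bodies, was at 131, 120 and 184 CPM against 42.2, 47.3 and 92.4 CPM (1.25), and ABCA3, the lipid pump of these organelles, at 437, 332 and 382 CPM against 199, 193 and 211 CPM (0.93). SFTPC and LAMP3 were highest among controls in 16-113, which still lay under every treated animal. SFTPB, the other hydrophobic surfactant protein, was at 6186, 4112 and 4813 CPM against 3200, 3121 and 3775 CPM and missed the fold threshold (0.58 ± 0.21, edgeR q = 0.0930). SFTPD, a lectin of host defence, had overlapping groups and a log2 fold change of -0.01, and NAPSA, the protease that processes the surfactant proteins, -0.12.

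Synthesis of the phospholipids that surfactant holds was represented by 29 tested genes, of which 8 were induced and 1 suppressed (median 0.17). CHKA, the choline kinase that opens the pathway to phosphatidylcholine, was at 204, 189 and 196 CPM against 65.6, 65.8 and 71.1 CPM (log2 fold change 1.54 ± 0.13, edgeR q = 3.03e-05), with very little spread in either group. ACSL4, which activates long-chain fatty acids, was at 300, 313 and 406 CPM against 105, 103 and 104 CPM (1.71). Its relatives ACSL3 and ACSL5 rose by 1.32 and 1.07, LPIN2, a phosphatidate phosphatase, by 1.28, and FASN, the fatty acid synthase, by 0.64, a call lost without 15-97 or 16-113. PLIN2, a lipid droplet coat protein, rose by 1.52 from a low level and lost its call without 15-81 or any single control. PCYT1B, which makes the activated choline of the same pathway, fell from 6.60, 6.30 and 8.03 CPM to 2.48, 2.17 and 3.88 CPM (-1.30). In contrast, 13 of the 14 tested genes of cholesterol synthesis and uptake were lower and 1 higher, none was called, and their median was -0.15.

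Ion and water transport had 7 of 24 tested genes induced and 1 suppressed (median 0.28), and 6 to 8 were induced without single animals. All 3 subunits of the epithelial sodium channel, which absorbs lung liquid, rose. SCNN1A was at 330, 397 and 316 CPM against 204, 133 and 126 CPM (log2 fold change 1.17), SCNN1B at 36.2, 68.3 and 66.4 CPM against 23.4, 28.2 and 31.0 CPM (1.04), and SCNN1G at 59.5, 132 and 130 CPM against 39.4, 47.6 and 41.4 CPM (1.32 ± 0.32, edgeR q = 0.0187). For SCNN1B and SCNN1G animal 15-81 was the lowest of the treated animals, near the controls. SLC26A9, an anion channel of epithelia, was at 36.4, 52.1 and 53.0 CPM against 6.96, 7.87 and 13.9 CPM (2.29 ± 0.33, edgeR q = 6.17e-04). CA2, a carbonic anhydrase, rose by 1.01. NHERF1, a scaffold of apical transporters, fell by 0.73.

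Genes of alveolar type 1 cells, which line the gas exchange surface, were mixed. HOPX was at 372, 554 and 505 CPM against 227, 176 and 180 CPM (log2 fold change 1.29 ± 0.15, edgeR q = 1.43e-04). RTKN2 was at 130, 147 and 144 CPM against 161, 263 and 234 CPM (-0.65, edgeR q = 0.0947), a call lost in 5 of the 6 fits without an animal. AGER, the usual marker of these cells, had overlapping groups and was not called (0.45 ± 0.35, edgeR q = 0.377), and the other 8 of the 11 tested members were not called either. CLDN18, the lung tight junction claudin, was at 131, 157 and 126 CPM against 74.8, 53.1 and 88.1 CPM (0.93) and was the induced gene among 36 tested genes of cadherins, claudins and junctions. In that list GJA5 and CDH11, of arterial gap junctions and mesenchymal adhesion, fell by 1.16 and 0.98. None of the 11 tested airway genes was called, although 10 were higher, with a median of 0.68 and a summed level of 89.0 to 379 CPM in treated animals against 67.4 to 216 CPM in controls.

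Signals that shape the developing lung moved in both directions. In the Hedgehog pathway, through which epithelium instructs mesenchyme, 2 of 12 tested genes were induced and 3 suppressed (median -0.32), and the 5 calls became 3 without 15-92 or 16-113 and 2 without 15-101. HHIP, which captures the ligand, was at 91.1, 73.6 and 75.3 CPM against 37.4, 45.3 and 33.2 CPM (log2 fold change 1.05), while the effectors GLI3 and GLI2 fell by 0.93 and 0.72, the second of these calls being lost in 4 of the 6 fits without an animal. BOC, a co-receptor, rose by 0.61 and DISP1, needed for ligand release, fell by 0.69, with calls lost in 3 and 4 of these fits. GLI1 and PTCH1, the usual target genes of the pathway, were not called (-0.24 and -0.01).

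Wnt genes had 3 of 33 members induced and 6 suppressed, 9 in all, of which the count was 5 without 15-97 or 15-92. WNT9A, a ligand, was at 12.6, 9.65 and 14.5 CPM against 5.83, 5.48 and 4.77 CPM (1.19), and FRZB, a secreted antagonist, rose by 0.81. WNT7B, the epithelial ligand, fell from 5.83, 3.15 and 4.37 CPM to 2.96, 1.64 and 1.75 CPM (-1.04), a call lost without 15-85, 15-97, 15-92 or 16-113. The receptors FZD8 and FZD2 fell by 0.90 and 0.62, and NKD1, an inhibitor within the cell, by 0.80. The calls of FRZB, FZD2 and NKD1 were lost in 3, 2 and 2 of the 6 fits without an animal.

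In the BMP pathway 3 ligands were suppressed and 2 genes induced, from 23 tested genes with a median of -0.32. BMP3 fell from 41.7, 32.6 and 33.9 CPM to 12.3, 12.4 and 7.64 CPM (log2 fold change -1.74 ± 0.24, edgeR q = 4.77e-04), BMP7 from 15.6, 13.6 and 15.3 CPM to 4.17, 4.19 and 8.26 CPM (-1.44), and BMP6 from 21.6, 17.2 and 16.0 CPM to 8.64, 5.53 and 10.8 CPM (-1.13). All 3 held without any single animal. ENG, a co-receptor of endothelium, rose by 0.71 and SMAD9 by 0.59, the second of these calls being lost without 15-81 or 15-92. In the TGF-beta pathway SMAD3, the receptor-regulated effector, fell from 76.4, 77.6 and 82.7 CPM to 54.9, 36.6 and 44.8 CPM (-0.79 ± 0.13, edgeR q = 1.56e-03) and TGFB3, a ligand, fell by 0.65, a call lost without 15-92. THBS1, a matrix glycoprotein that activates the ligand, rose by 1.21.

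Of 18 tested Notch genes 2 were suppressed and 1 was induced (median -0.05). NRARP, a feedback inhibitor, and LFNG, a glycosyltransferase of the receptor, fell by 1.12 and 0.77, the second call being lost without 15-101. HEY1 rose by 0.61 (edgeR q = 0.0909), a call lost without 15-81, 15-85, 15-97, 15-92 or 16-113. Of 17 FGF genes only ETV5, a nuclear target, was called (0.70), and not without 15-81, 15-97 or 15-101. Among insulin-like growth factor genes IGFBP3, the main carrier in plasma, was at 132, 165 and 95.7 CPM against 44.9, 32.0 and 35.5 CPM (1.80), and STC2, a protease inhibitor of the same system, fell from 54.8, 78.0 and 48.8 CPM to 18.4, 11.1 and 34.3 CPM (-1.51). Of 17 lineage transcription factors FOXF2, of lung mesenchyme, fell by 0.91 and TBX5 rose by 0.59, a call lost without 15-85, 15-97 or 16-113. Among 19 feedback regulators of signalling 1 was induced and 3 were suppressed. PIK3R1, the regulatory subunit of phosphoinositide kinase, rose by 1.32 and RGS5, of pericytes, fell by 1.11. SOCS1 fell by 1.12, a call lost in every fit without an animal, and DUSP7 by 0.69, a call lost without 15-85.

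Genes of the endothelium fell in part. Of 24 tested, 6 were suppressed and 1 induced (median -0.32), and 5 to 8 were suppressed without single animals. KDR, the main VEGF receptor, fell from 582, 632 and 622 CPM to 311, 205 and 304 CPM (log2 fold change -1.16 ± 0.14, edgeR q = 1.32e-04). CD34, a surface sialomucin, fell from 438, 497 and 429 CPM to 221, 177 and 300 CPM (-0.97), and PROX1, the lymphatic regulator, fell by 1.20 from a low level, a call lost without 15-101 or 16-113. The ETS family factors ETS1 and FLI1 fell by 0.86 each. The pan-endothelial markers PECAM1 and CDH5 were not called, at 839, 813 and 1081 CPM against 751, 817 and 778 CPM (0.22) and at 606, 536 and 803 CPM against 885, 914 and 820 CPM (-0.43). The summed level of the list ranged from 5042 to 6323 CPM in treated animals and from 5640 to 6665 CPM in controls, so that the groups overlapped.

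Of 22 tested genes of endothelial tip cells and angiogenic factors, 6 were suppressed and 3 induced. APLNR, the apelin receptor of sprouting vessels, fell from 180, 224 and 200 CPM to 49.4, 60.8 and 71.0 CPM (log2 fold change -1.74 ± 0.19, edgeR q = 8.95e-05). ESM1, a tip cell proteoglycan, fell by 1.98 from levels of 3.45 to 7.12 CPM, and VEGFD, a lymphatic growth factor, fell by 1.01. The co-receptors NRP2 and NRP1 had log2 fold changes of -0.99 and -0.79. ADAMTS1, a protease with antiangiogenic activity, was at 421, 308 and 394 CPM against 102, 136 and 121 CPM (1.65). Except for UNC5B, these calls held without any single animal. The neuropilins and UNC5B also stand among the 9 suppressed of 56 tested axon guidance genes, of which none was induced (median -0.25). There EPHB1, an ephrin receptor, fell from 9.99, 10.6 and 8.23 CPM to 1.60, 2.17 and 3.07 CPM (-2.10 ± 0.28, edgeR q = 3.85e-04), and SEMA3A and UNC5C, a repulsive cue and a netrin receptor, fell by 1.60 each.

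Of 22 tested genes of nitric oxide, endothelin and angiotensin signalling 5 were induced and 2 suppressed, and these 7 became 4 without 15-92 or 15-101. The endothelin receptors had changes of opposite sign. EDNRA, of smooth muscle, fell from 144, 150 and 155 CPM to 58.6, 63.9 and 73.2 CPM (log2 fold change -1.20 ± 0.19, edgeR q = 1.41e-03). EDNRB, mostly of endothelium, was at 1238, 591 and 1408 CPM against 760, 466 and 382 CPM (1.01, edgeR q = 0.0447), where 15-85 lay within the controls and the call was lost without 15-81, 15-97, 15-101 or 16-113. NPR3, the clearance receptor for natriuretic peptides, rose by 1.21, a call lost without 15-81. AGTR1 and NPR1, receptors for angiotensin II and natriuretic peptide, rose by 0.75 and 0.67, the first of these calls being lost without 15-97, 15-92 or 16-113. NPPC, the C-type peptide itself, was at or below 1.23 CPM in all 6 libraries (-2.16) and lost its call in 4 of the 6 fits without an animal. Among adrenergic and prostaglandin genes ADRA1A fell by 1.93 and PTGER1 by 1.29, beside the rise of ADRA2B, and PTGER1 lost its call in 4 of these fits. Of 27 potassium channel genes 2 were induced and 2 suppressed, among them KCNS3, a modulatory subunit that fell from 43.7, 44.8 and 48.2 CPM to 11.2, 14.4 and 15.1 CPM (-1.76 ± 0.19, edgeR q = 7.92e-05).

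Matrix proteases and their inhibitors had 6 of 25 tested members induced and 3 suppressed. Beside ADAMTS1, the metalloproteinase MMP19 rose by 1.53 and TIMP4, an inhibitor, was at 2.32, 1.87 and 3.44 CPM against 0, 0.890 and 0 CPM, a call lost without 15-97, 15-92 or 16-113. MMP15, a membrane-bound metalloproteinase, fell from 177, 180 and 177 CPM to 54.3, 87.9 and 99.3 CPM (log2 fold change -1.15 ± 0.19, edgeR q = 1.74e-03), ADAM19 fell by 0.77 and PLAU, the urokinase activator, by 1.13, the latter not without 15-81, 15-85 or 15-101. Few genes of the matrix itself were called. Of 28 collagen genes only COL23A1 was called (0.65), lost in 5 of the 6 fits without an animal, and their median was -0.03. COL1A1 was at 3647, 3213 and 3633 CPM against 3235, 2502 and 4361 CPM. Among 19 genes of fibroblasts and elastic fibres VCAN, a proteoglycan, fell by 0.59 (lost without 15-81 or 16-113), and of 14 smooth muscle genes RGS5 alone was called.

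The T cell list had the most suppressed members of the 52 lists. Of 33 tested T cell genes 12 were suppressed, 2 were induced and the median was -0.99, with 27 lower. CCR7, the receptor that leads naive T cells to lymphoid tissue, fell from 6.66, 7.05 and 4.37 CPM to 1.18, 0.523 and 1.56 CPM (log2 fold change -2.43 ± 0.40, edgeR q = 1.56e-03). CD3E, of the T cell receptor complex, fell from 6.48, 7.53 and 3.46 CPM to 1.18, 0.523 and 2.38 CPM (-2.09 ± 0.48, edgeR q = 0.0140). Treated animals lay under the controls in both genes, 15-85 was the lowest, and control 16-113 was the lowest control. CD247, IL2RB, CD5 and RASGRP1 fell by 1.37, 1.26, 1.24 and 1.05, and except for RASGRP1 these calls were lost in 2, 3 and 5 of the 6 fits without an animal. CD3G, a further receptor chain, was at 0.811, 1.27 and 0.876 CPM against 1.84, 3.08 and 0.853 CPM and was not called.

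Calls in the T cell list moved with single animals. The 14 called members became 5 without control 15-101, 8 without control 15-92 and 10 to 16 without any other animal, and 5 were called in every such fit. The induced members PRKCQ, a kinase also found outside T cells, and IL7R were at 67.6, 78.7 and 65.1 CPM against 21.8, 18.8 and 19.6 CPM (1.81 ± 0.16, edgeR q = 3.03e-05) and at 123, 46.4 and 127 CPM against 45.7, 39.0 and 51.7 CPM (1.12, edgeR q = 0.0569). In IL7R animal 15-85 lay within the controls, and its call was lost in 5 of the 6 fits without an animal. These abundant members carry much of the summed level of the list, which was 256 to 371 CPM in treated animals and 258 to 295 CPM in controls. Of 12 tested B cell genes 3 were suppressed (1 without 15-81 and 6 without 15-97) and 10 were lower (median -0.92). FCRL1 and BTK fell by 1.43 and 0.98, with calls lost in 1 and 4 of the 6 fits without an animal, and the sum of the list was 19.7 to 23.0 CPM against 24.5 to 36.5 CPM without overlap.

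In the NF-kappaB pathway 7 of 25 tested members were suppressed and 2 induced (median -0.16), and 4 to 6 were suppressed without single animals. RELB, a subunit of the noncanonical arm, fell from 12.4, 12.7 and 8.68 CPM to 3.73, 4.93 and 5.45 CPM (log2 fold change -1.27 ± 0.19, edgeR q = 7.67e-04). The receptors TLR3 and TLR4 fell by 1.10 and 1.08, with calls lost in 5 fits each without an animal, and the kinase IKBKE fell by 1.02. IRAK1 rose by 0.64, beside NFKBIA, and lost its call without 15-92. LTB, the lymphotoxin subunit that signals to that arm, fell from 1.90, 2.94 and 1.31 CPM to 0.509, 0.299 and 0.438 CPM (-2.23 ± 0.37, edgeR q = 1.63e-03).

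No tested chemokine or chemokine receptor was induced, and 4 of 24 were suppressed. CCL2, which recruits monocytes, fell from 13.5, 14.4 and 10.3 CPM to 2.92, 1.42 and 3.76 CPM (-2.22 ± 0.42, edgeR q = 4.21e-03), and CXCL12, the ligand that retains leukocytes and guides vessels, from 209, 203 and 230 CPM to 141, 132 and 136 CPM (-0.65). CCL8 was at 0.208, 0 and 0.313 CPM against 2.74, 0.342 and 2.11 CPM, and its call was lost in 5 of the 6 fits without an animal. Of 45 cytokines and receptors 4 were induced, 1 of them without 15-92, and 5 suppressed. IL1R2, the decoy receptor for interleukin-1, was at 2.25, 1.79 and 3.32 CPM against 0.297, 1.10 and 0.251 CPM (2.19, lost without 15-92), OSMR, the oncostatin receptor, rose by 1.19, and TNFSF10, the death ligand TRAIL, fell from 327, 407 and 444 CPM to 174, 199 and 200 CPM (-1.04 ± 0.13, edgeR q = 2.02e-04). IL33, an alarmin, fell by 1.08 and IL15, a lymphocyte survival factor, by 1.00, a call lost in 4 of the 6 fits without an animal.

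Among 22 tested interferon response genes 7 were suppressed and none induced (median -0.30), a count of 4 without 15-92 or 15-101. IRF8, a factor of myeloid and B cells, fell from 21.9, 26.0 and 18.5 CPM to 7.85, 7.93 and 10.3 CPM (log2 fold change -1.35 ± 0.16, edgeR q = 1.43e-04), and IFI44 from 64.5, 48.5 and 74.9 CPM to 31.4, 24.8 and 33.4 CPM (-1.07). IFIT1 fell by 1.34 (edgeR q = 0.0881) and lost its call in 5 fits without an animal. All 10 tested genes of antigen presentation were lower (median -0.44) and 2 were suppressed: CIITA, the class II activator, from 8.15, 8.76 and 9.79 CPM to 3.47, 2.32 and 3.69 CPM (-1.48) and CD83, a marker of mature dendritic cells, from 20.9, 16.2 and 18.2 CPM to 7.34, 5.61 and 7.14 CPM (-1.45). The macrophage list had 1 induced and 1 suppressed member of 20 (median -0.07). CD163, the haemoglobin scavenger receptor, was at 51.8, 10.9 and 39.4 CPM against 13.5, 5.20 and 10.5 CPM (1.81, edgeR q = 0.0232), with 15-85 among the controls.

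Marker lists of other cells showed few stable calls. Of 9 tested megakaryocyte genes 5 were suppressed (median -1.02), but 0 to 2 without single animals and 2 by DESeq2, and their sum was 62.0 to 70.3 CPM against 66.6 to 75.4 CPM. ITGA2B, the platelet integrin, was at 2.59, 2.09 and 2.19 CPM against 2.80, 6.71 and 4.62 CPM and lost its call in 5 of the 6 fits without an animal. Of 16 erythroid genes none was called, 13 were lower (median -0.65), and their sum was 310 to 358 CPM against 156 to 572 CPM. All 6 tested mesothelial genes were higher (median 0.71) and ITLN1, a lectin, was induced from 19.3, 21.7 and 26.9 CPM to 54.5, 64.8 and 56.3 CPM (1.37). The other 5 were not called, and the sum of the list overlapped, at 288 to 418 CPM against 247 to 329 CPM. The mesothelial markers MSLN and WT1 had overlapping groups as well. Of 11 genes of nerve and glia NGFR fell by 1.19, and no tested muscle or thymus gene was called.

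None of 34 oxidative phosphorylation genes was called (median 0.06), nor any of 60 cytosolic ribosomal protein genes, of which 57 were higher with a median of 0.18. Nor was any of 42 mitochondrial ribosomal and 39 proteasome genes called. Of 49 cell cycle genes 41 were lower with a median of -0.23, but only 1 was induced and 2 suppressed (6.12% called, beside 7.4% of all tested genes). Their summed level was 1104 to 1218 CPM in treated animals and 1124 to 1233 CPM in controls, so that the groups overlapped. CCND1, the cyclin of early cell cycle entry, fell from 163, 144 and 184 CPM to 62.8, 93.5 and 90.4 CPM (log2 fold change -1.0 ± 0.18, edgeR q = 3.49e-03). CDC25B, a phosphatase of mitotic entry, rose by 1.28. BUB1B, of the spindle checkpoint, fell by 0.61 and lost its call in 5 of the 6 fits without an animal. Among 14 immediate early genes 10 were lower (median -0.24), GADD45B and FOSL2 rose by 1.76 and 1.11, and FOSL1, at most 0.685 CPM in any of the 6 libraries, fell by 2.27, a call lost in 4 of them. Of 35 amino acid genes 3 were induced and 3 suppressed (median 0.10), 6 calls that became 3 without 15-101. Beside GLUL and SLC6A20, the glutamate carrier SLC1A1 rose by 0.68 (lost without 15-101), while SLC1A3, another such carrier, and PHGDH, which opens serine synthesis, fell by 1.39 and 1.08. Among 25 chaperone genes HERPUD1 and BAG3 rose by 0.76 and 0.62, the latter not without 15-97 or 15-101. By gene family, 12 of 278 solute carriers were induced and 11 suppressed (8.27% called), near the 7.4% of all tested genes. Of 294 zinc finger genes 7 were called (2.38%), a share below it.

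Lungs at 4 h were also compared directly with lungs 5 days after the same drug and 6 h after Beta-Ac, groups whose gestation, drug, dose or time differ together. Against 5 days 1833 genes differed (10.4% called), with 789 higher at 4 h (4.47%) and 1044 lower (5.92%). Against Beta-Ac at 6 h 1189 genes differed (6.74%), with 463 higher (2.62%) and 726 lower (4.11%) after the clinical drug. The count against Beta-Ac was 667 without 15-85 and 1971 without 15-81. Since 4 h libraries stand on one side of each of these comparisons and of that with saline, their counts are not independent.

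FKBP5 was at 173 ± 49.6 CPM (SD, n = 3) at 4 h, 5.61 ± 0.296 in controls, 6.19 ± 0.449 at 5 days and 52.0 ± 47.1 after Beta-Ac at 6 h. Of the 24 glucocorticoid-induced genes 18 were higher at 4 h than at 5 days and none lower, and 7 were higher than after Beta-Ac at 6 h. CHKA averaged 196 ± 7.45 CPM at 4 h, 102 ± 25.1 after Beta-Ac at 6 h and 68.1 ± 3.24 at 5 days. SFTPC was higher at 4 h than at 5 days (log2 difference 0.90) and was not called against Beta-Ac at 6 h (0.45). Of the 33 T cell genes 17 were lower at 4 h than at 5 days and 2 higher, and 10 were lower than after Beta-Ac at 6 h and 1 higher. CCR7 averaged 1.09 ± 0.527 CPM at 4 h, 6.03 ± 1.45 in controls and 5.92 ± 2.96 after Beta-Ac. APLNR averaged 60.4 ± 10.8 CPM at 4 h, 188 ± 24.5 after Beta-Ac at 6 h and 238 ± 59.7 at 5 days, and KDR 273 ± 59.4, 496 ± 55.3 and 641 ± 22.4 CPM.

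**Figure D5:**
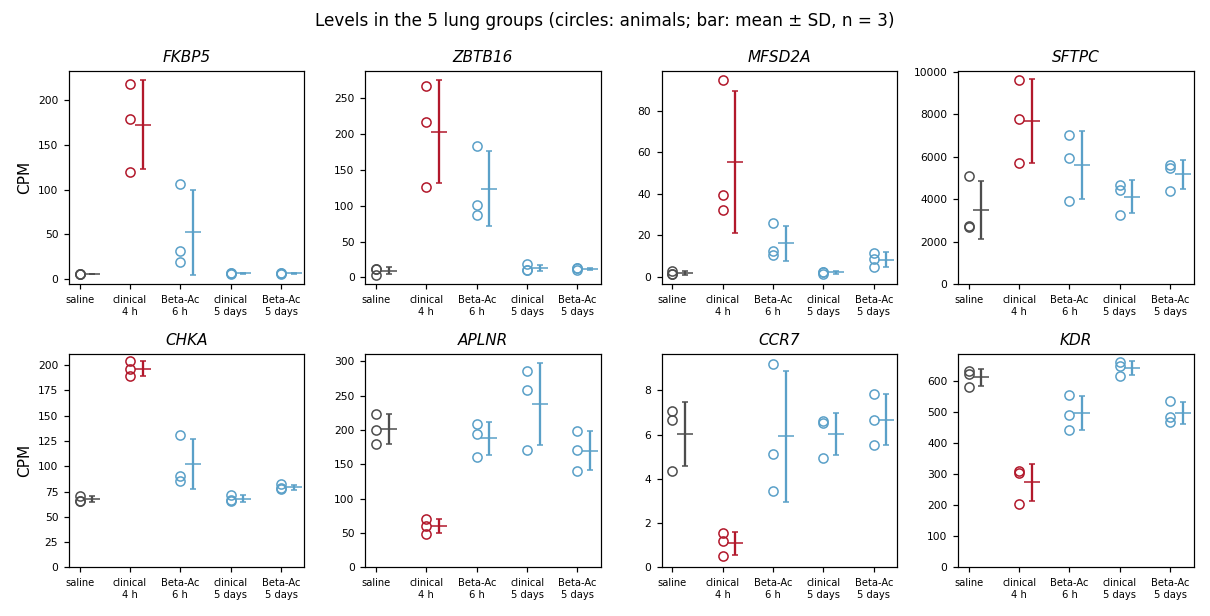
Panels give CPM of 8 named genes in the 5 lung groups, with circles for animals and bars for mean and SD (n = 3). The 4 h animals stand above the 5-day animals of the same drug for FKBP5, ZBTB16, MFSD2A, SFTPC and CHKA and below them for APLNR, CCR7 and KDR, and Beta-Ac animals at 6 h lie between them and controls for FKBP5, MFSD2A and CHKA.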

How the data were processed

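The authors sequenced total RNA of whole lung and deposited raw read counts per Ensembl gene. They used Bowtie (1.2.1.1 in the submitters' processing notes, Bowtie 2 in the paper) on rhesus build MMUL1.0 and featureCounts 1.5.1. Labels name Trizol extraction and the paper a column kit. From the deposited counts, differential expression was computed with edgeR 4.0.16 in R 4.3.3 (TMM, quasi-likelihood F-test, 1 fit of 15 lung libraries). Tested genes had at least 7 reads in 3 libraries. Thresholds were 1.5-fold, p below 0.05 and Storey q below 0.1. Prior counts were 0.125 for fold changes and 2 for log2 CPM. A gene at 0 in a group has its fold bounded with 3 reads summed over the group, for counting error alone. Labels do not say that fetuses came from separate dams, and p-values measure only the spread between these samples.

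Members and lists were chosen with earlier results of these data known. Named by rule were the 8 most induced and 8 most suppressed non-overlapping genes with a symbol and at least 1 CPM, up to 3 called members per list and direction, the receptors and cortisol enzymes (HSD11B1 was not matched to an identifier) and 4 lung markers. Further list members and markers were named after their values were seen. Alternatives were RLE scaling, 3 read filters, no fold threshold, Benjamini-Hochberg adjustment, only compared groups, edgeR's likelihood ratio and exact tests, DESeq2 1.42.0 and leaving out single animals. The procedure was tested on simulated data. No genome sequence was used. Some items are not reported here.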

Additional observations from a re-analysis of the deposited data

Results flagged for a closer look

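Among the 16 genes named for the size of their change, direct tests of 4 h against 5 days after the clinical drug (15 genes) and against Beta-Ac at 6 h (12 genes) passed the same thresholds. Against 5 days the log2 differences of the induced genes were 5.47 for NNMT, 4.80 for FKBP5, 4.72 for MFSD2A, 3.93 for ZBTB16, 3.51 for ADRA2B, 2.97 for RRAGD and 2.64 for NALF2. LY6H, at 2.29, did not pass. The suppressed genes differed by -2.86 for MARCHF4, -2.73 for IGSF11, -2.72 for LTB, -2.69 for EXOC3L2, -2.43 for CCR7, -2.37 for SRRM4, -2.26 for NWD2 and -1.47 for CCL2.

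Against Beta-Ac at 6 h the log2 differences were 4.42 for LY6H, 3.20 for NALF2, 1.79 for MFSD2A, 1.73 for FKBP5 and 1.60 for RRAGD. For NNMT, ADRA2B, ZBTB16 and NWD2, at 0.93, 0.29, 0.71 and -1.12, the test was not passed, which does not show that the groups were alike. Lower values after the clinical drug were -2.47 for MARCHF4, -2.41 for CCR7, -2.29 for EXOC3L2, -2.14 for LTB, -1.97 for SRRM4, -1.52 for IGSF11 and -1.24 for CCL2. These genes were chosen from the comparison of the same 4 h libraries with saline, and drug, dose and time differ together.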

How the results depend on the processing

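The 1306 calls became 1304 with RLE scaling, 1281, 1217 and 1050 with other read filters, 1099 with Benjamini-Hochberg adjustment, 1431 and 1257 with edgeR's likelihood ratio and exact tests and 1297 with DESeq2, which shared 1213. Without a fold threshold there were 2104 (1085 induced). With only the compared groups fitted there were 884, and suppressed genes dropped from 695 to 420. Leaving out 1 animal gave 1005 to 1287 calls, 461 to 564 induced and 530 to 773 suppressed. Against 5 days, 1833 became 3306 without a fold threshold and 1256 to 2413 without 1 animal. Against Beta-Ac, 1189 became 724 without a read filter, 2389 without a fold threshold, 314 with only the compared groups, and 667 to 1971 without 1 animal. The causes were not tested. RLE scaling moved the median of all tested genes from 0.02 to 0.01.

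List counts stayed within 1.5 times in 299 of 364 settings. The 16 genes named by size, 3 receptor and cortisol genes and 4 lung markers, 23 in all, were followed over 206 settings, of which 16 lost a call (LY6H, SRRM4, NR3C2, HSD11B2), 1 gained it (SFTPB) and 0 reversed. Other genes were followed only over animals left out. No paired analysis was possible because the labels give animal numbers and no replicate number shared between groups. With 3 animals a group and 357 called genes without a symbol, functions are described only in part.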

Other observations

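Of 25 tested genes of nicotinamide and one-carbon metabolism 3 were induced and 1 suppressed (16% called, beside 7.4% of all tested genes), and these 4 calls became 2 without 15-92, 15-101 or 16-113. Beside NNMT, the glycine methyltransferase GNMT rose by 1.13, and CD38, which consumes NAD, fell by 1.30. The call of GNMT was lost without 15-92 or 16-113 and that of CD38 without 15-92 or 15-101. GNMT was at 8.59, 11.1 and 9.33 CPM in treated animals against 3.33, 6.57 and 3.36 CPM in controls.

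By family, RAB GTPases had 2 induced and 4 suppressed of 56 (10.7% called, beside 7.4% of all tested genes). All 6 tested HOX genes were lower (median log2 fold change -0.58) and none was called. Of 45 ubiquitin-specific peptidases 34 were higher and 1 was induced (2.22% called), where 9289 of all 17644 tested genes were higher.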
